A study of Mus musculus with 17 samples.

Results

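The comparison described here is the Prominin gate within the GFP-low cells of the mouse cortex at embryonic day 14 (E14). Its members are 6 of the 17 arrays, chosen by their titles: 3 arrays of GFP-low cells that were also selected for Prominin (GFP-low Prominin+) and 3 arrays of GFP-low cells whose titles name no Prominin gate (GFP-low). The cells came from embryos of hGFAP eGFP mice, in which the promoter of the human GFAP gene drives enhanced green fluorescent protein, and were separated by fluorescence-activated cell sorting. No treatment, mutation or second allele is named for any group. The other arrays were 4 of E14 GFP-high Prominin+ cells and 3 of E14 GFP-high cells, which give the same contrast at the other GFP level, and 4 of E18 GFP+ Prominin+ cells, which only add to the estimate of spread. Total RNA was hybridised to 3′ expression arrays, and each probe set has 1 intensity per array. Nothing in the labels ties an array to its own litter or day, so p-values reflect the scatter among arrays, which may be technical, and 3 arrays a group limit the precision.

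Prominin (CD133, the product of Prom1) is a membrane protein of the apical protrusions of neuroepithelial cells and radial glia. Radial glia are the dividing progenitor cells that line the cortical ventricle. They give rise to neurons directly or through Eomes-positive basal progenitors, which divide away from the ventricle. Neurons that leave the ventricular side no longer have an apical membrane, and Cajal-Retzius cells, early-born neurons of the outermost layer, secrete Reelin.

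The 2 groups also differed in how their RNA was labelled. All 3 GFP-low Prominin+ arrays were made with the MessageAmp II-Biotin Enhanced kit and all 3 GFP-low arrays with the GeneChip IVT Labeling Kit, so the gate and the kit cannot be told apart within GFP-low cells. Array controls differed with them. The log2 excess of the 3′ over the 5′ Gapdh control probe set, which grows as labelled RNA gets shorter, was 1.80, 0.92 and 2.30 on the GFP-low Prominin+ arrays, against -0.25, 0.18 and -0.16 on the GFP-low arrays. The 18S ribosomal RNA control read 5438, 4528 and 4606, against 432, 2106 and 915. The dap control, a bacterial poly-A RNA that can be added before labelling, read 3.85, 6.46 and 18.2, against 565, 626 and 1894. None of these controls overlapped between the groups, and each reached the exact two-sided permutation p of 0.1, the smallest that 3 against 3 arrays allow.

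**Figure D1:**
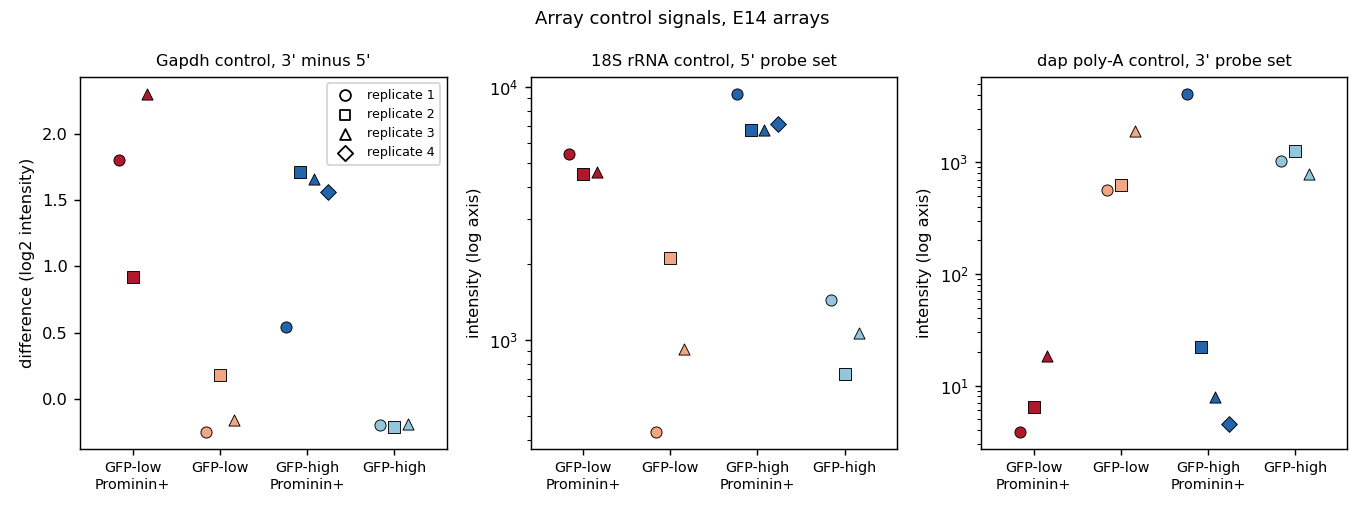
Control signals on each E14 array, with the 4 groups on the horizontal axis and 1 point per array: the Gapdh 3′ minus 5′ difference (log2), the 18S control and the dap control (linear intensities on log axes). GFP-low Prominin+ arrays lie apart from GFP-low arrays in all 3 panels, and GFP-high Prominin+ replicate 1 has a dap signal above that of every array without the gate.

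Levels below are log2(intensity + 16), quantile normalised after the log step, with 1 probe set per gene. A log2 difference of 1 is a 2-fold change on that scale. A gene is called when its Benjamini-Hochberg adjusted p from limma is under 0.05. Genes whose group mean lies at or below 5.55, the 95th percentile of 39 olfactory receptor genes, are treated as near background, and no fold is given against them.

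The selected gene itself was higher in the gated cells. Prom1 had levels of 10.23, 10.07 and 10.19 in GFP-low Prominin+ cells, against 8.32, 8.74 and 8.83 in GFP-low cells, a 2.89-fold difference (log2 1.53 ± 0.16 SE, adjusted p = 2.37e-05). The groups did not overlap. With the kit as a covariate the log2 difference was 1.46 (limma adjusted p = 0.026). That fit takes the kit from 1 against 2 GFP-high arrays, so it cannot separate gate from kit in GFP-low cells. GFP-low cells without the gate still had Prom1 well above the background level. Gfap, whose human promoter drives the reporter, averaged 5.07 ± 0.80 in GFP-low Prominin+ cells and 4.80 ± 0.45 in GFP-low cells (SD, n = 3 each), at or near background in both (adjusted p = 0.66).

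Across 18193 genes, 3454 (19%) were called, 1786 (9.82%) higher in GFP-low Prominin+ cells and 1668 (9.17%) lower. Of these, 1433 (41.5%) differed by 2-fold or more. For 5905 genes (32.5%) the 2 groups did not overlap. With each array centred on its median in place of quantile normalisation, 38.3% of called genes were higher, against 51.7% here, so the split between higher and lower depends on the scaling. With the labelling kit as a covariate, 373 genes were called, 201 (1.1%) higher and 172 (0.945%) lower. That covariate rests on 1 against 2 GFP-high arrays. Calls kept under it, here and below, therefore do not separate gate from kit.

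The largest rise was that of Egr1, an immediate early transcription factor. It had levels of 11.88, 11.11 and 10.99 in GFP-low Prominin+ cells, against 8.36, 8.87 and 6.99 in GFP-low cells (log2 3.26 ± 0.69, adjusted p = 0.0034). Rpl27a, a protein of the large ribosomal subunit, had 11.23, 11.14 and 11.28, against 7.65, 8.01 and 8.35 (log2 3.21 ± 0.26, adjusted p = 3.6e-06). Genes of largest change were listed only where the 2 groups did not overlap. Rpl27a has 2 probe sets on the array and only 1 was called. Kdm5a, a histone H3 lysine 4 demethylase, had a log2 difference of 3.04 by its brightest probe set. Of its 6 probe sets, 3 were called higher and 0 lower. Another of them, with means of 8.13 in GFP-low Prominin+ cells and 8.37 in GFP-low cells, differed by -0.24 and was not called. Dct, an enzyme of melanin synthesis, averaged 7.97 in GFP-low Prominin+ cells and 4.96 in GFP-low cells, where it was near background.

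Among the falls, Lrrc4b, a synaptic adhesion protein, had levels of 5.84, 5.77 and 5.47 in GFP-low Prominin+ cells, against 9.75, 9.31 and 8.59 in GFP-low cells (log2 -3.52 ± 0.36, adjusted p = 1.97e-05). Nnat, a small membrane protein of immature neurons, had 10.28, 10.86 and 9.95, against 13.59, 13.42 and 13.15. Mta2, a subunit of the NuRD chromatin complex, differed by -2.99 and Pfdn2, a subunit of the prefoldin chaperone, by -2.94. These 4 genes were listed only because their groups did not overlap, so that separation is no further result.

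Many genes of radial glia were higher in the gated cells. Of 25 radial glia genes tested, 12 rose and 1 fell, with a median log2 difference of 0.75, beside 1.81e-05 over all genes. Notch1, the receptor that keeps radial glia from differentiating, had levels of 9.49, 9.63 and 9.86 in GFP-low Prominin+ cells, against 7.06, 7.17 and 7.92 in GFP-low cells (4.86-fold, log2 2.28 ± 0.20, adjusted p = 7.34e-06). The dimmer Notch1 probe set was not called (log2 0.26, limma adjusted p = 0.40). Phgdh, the first enzyme of serine synthesis, had 9.86, 10.03 and 10.23, against 7.70, 7.47 and 8.82 (4.13-fold, adjusted p = 0.000138). Aldoc, a glial aldolase, was 3.01-fold higher (log2 1.59 ± 0.22). In all 3 genes GFP-low replicate 3 was the GFP-low array nearest to the gated ones. Leaving it out gave 17 of 25 radial glia genes higher, and the fewest, 8, were called without GFP-low replicate 2 or without GFP-low Prominin+ replicate 3. With the kit as a covariate 4 of 25 were called.

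Not every radial glia gene moved. Fabp7, the brain fatty acid binding protein, had levels of 10.93, 11.03 and 11.35 in GFP-low Prominin+ cells, against 11.42, 11.40 and 11.60 in GFP-low cells (log2 -0.37 ± 0.21, adjusted p = 0.25). Slc1a3, the glutamate transporter GLAST, was 2.11-fold higher (log2 1.08 ± 0.33, adjusted p = 0.031), but of its 6 probe sets 1 was called higher and 2 lower, and the call is lost without any 1 of 4 arrays: GFP-low Prominin+ replicate 1 or 3, or GFP-low replicate 1 or 2. Ptprz1, a receptor phosphatase of radial glia and their matrix, fell by 1.20 on the log2 scale (adjusted p = 0.000566). Pax6, the transcription factor of pallial radial glia, had 8.86, 9.03 and 9.08, against 7.54, 7.43 and 8.47 (2.26-fold, log2 1.18 ± 0.25, adjusted p = 0.0032). Of its 5 probe sets 1 was called higher and 1 lower, and the mean of them all differed by -0.15, which was not called.

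Regulators that act on radial glia followed in part. Of 22 Notch pathway genes, 7 rose and 2 fell. Mfng, a glycosyltransferase that modifies Notch receptors, had levels of 9.31, 9.27 and 9.20 in GFP-low Prominin+ cells, against 7.65, 7.64 and 7.89 in GFP-low cells (2.90-fold, adjusted p = 0.000233). Nrarp, a feedback target of Notch, was 1.85-fold higher. Numb, an inhibitor of Notch, was 2.23-fold higher by the brighter of its 2 probe sets and lower by the other. The Notch target Hes5 (log2 0.95) and the ligand Dll1 (log2 0.07) were not called. Notch1 and Hes5 are also in the radial glia list, and Mfng and Dll1 in that of basal progenitors, so the counts of these lists are not independent.

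Of 11 Hedgehog pathway genes, 5 rose and 1 fell. Smo, the signal transducer of the pathway, had levels of 8.89, 9.13 and 9.08 in GFP-low Prominin+ cells, against 7.44, 7.31 and 7.60 in GFP-low cells (2.99-fold, log2 1.58 ± 0.18, adjusted p = 3.53e-05). The transcription factors Gli2 and Gli3 were 2.89-fold and 2.26-fold higher, and the co-receptor Cdon 2.04-fold, with 2 of 3 Gli3 probe sets called higher and 1 lower. The dimmer Cdon probe set differed by -0.59 and was not called, and the call of Cdon was lost with the mean of all probe sets. Of 14 pallial patterning factors, 5 rose and 1 fell. Among them Dmrta2, which specifies the dorsal telencephalon, had 10.19, 9.79 and 10.31, against 7.78, 7.18 and 9.24 (4.08-fold, adjusted p = 0.0013).

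Many cell-cycle genes were higher in the gated cells. Of 27 genes of G2 and mitosis, 16 rose and 0 fell, with a median log2 difference of 0.88. Ccnb2, a mitotic cyclin, had levels of 8.67, 8.73 and 8.95 in GFP-low Prominin+ cells, against 6.86, 6.93 and 7.65 in GFP-low cells (3.11-fold, log2 1.64 ± 0.19, adjusted p = 5.28e-05). Cdc20, which activates the anaphase-promoting complex, had 10.54, 10.37 and 10.61, against 8.34, 8.67 and 9.38 (3.26-fold). The spindle checkpoint kinase Bub1b was 2.78-fold higher, and the ubiquitin-conjugating enzyme Ube2c of mitosis 2.77-fold. None of these 4 called genes overlapped between the groups, as for 32.5% of all genes. The count of called genes was 10 without GFP-low replicate 1 and 21 without GFP-low replicate 3, and 3 with the kit as a covariate.

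Of 29 S-phase genes, 11 rose and 0 fell, with a median of 0.35. Mcm5, a subunit of the replicative helicase, had levels of 9.78, 10.27 and 10.09 in GFP-low Prominin+ cells, against 8.22, 8.27 and 9.15 in GFP-low cells (2.82-fold, adjusted p = 0.000324). Gins2, which belongs to the same moving helicase, was 3.43-fold higher, and Ccne1, the cyclin of S-phase entry, 2.98-fold. The clamp Pcna, with a log2 difference of -0.26, was not called. With the kit as a covariate 1 of the 29 was called.

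The largest single change in the cycle was in G1. Ccnd2, a D-type cyclin, had levels of 11.87, 12.51 and 12.36 in GFP-low Prominin+ cells, against 8.85, 8.89 and 10.11 in GFP-low cells (7.80-fold, log2 2.96 ± 0.28, adjusted p = 1.27e-05), with 6 of its 7 probe sets called higher. Its partner kinase Cdk6 was 2.53-fold higher. Cdkn1a, an inhibitor of cyclin-dependent kinases, also rose, with a mean of 6.92 in GFP-low Prominin+ cells and 5.23 in GFP-low cells, where it was near background. Of 13 genes of G1 cyclins, kinases and inhibitors, 6 rose and 0 fell.

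Promoter windows of some called cell-cycle genes are shown as examples of short motifs that many genes of these lists share. The windows are from RefSeq on GRCm38.p6, 250 bases before to 50 after the gene's start, and 14452 of the 18193 genes have at least 1. The first 3 are the genes of G2 and mitosis with the lowest p whose window holds both a CHR element (TTTGAA or TTCAAA) and a CCAAT box (CCAAT or ATTGG), which are in capitals. Ccnb2 lies at chr9:70421505-70421804 on the minus strand, Bub1b at chr2:118597961-118598260 on the plus strand and Cdc20 at chr4:118437294-118437593 on the minus strand.
Ccnb2: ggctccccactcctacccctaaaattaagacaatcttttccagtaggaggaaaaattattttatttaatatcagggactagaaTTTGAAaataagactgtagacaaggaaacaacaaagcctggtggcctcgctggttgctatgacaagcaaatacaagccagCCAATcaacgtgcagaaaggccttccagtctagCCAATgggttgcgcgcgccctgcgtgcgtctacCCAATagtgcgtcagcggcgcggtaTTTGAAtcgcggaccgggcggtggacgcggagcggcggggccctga
Bub1b: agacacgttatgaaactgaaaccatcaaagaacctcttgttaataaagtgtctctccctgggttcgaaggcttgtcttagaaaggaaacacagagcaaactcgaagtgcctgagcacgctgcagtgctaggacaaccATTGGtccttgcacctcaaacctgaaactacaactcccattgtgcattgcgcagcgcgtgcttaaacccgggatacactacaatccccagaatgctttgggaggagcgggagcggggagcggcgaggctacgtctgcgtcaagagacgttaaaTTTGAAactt
Cdc20: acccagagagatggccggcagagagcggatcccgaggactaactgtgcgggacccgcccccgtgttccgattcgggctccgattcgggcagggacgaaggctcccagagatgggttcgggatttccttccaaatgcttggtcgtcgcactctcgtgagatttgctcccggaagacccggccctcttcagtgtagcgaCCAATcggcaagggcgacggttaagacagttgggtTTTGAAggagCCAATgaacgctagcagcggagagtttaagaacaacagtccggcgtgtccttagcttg

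The Ccnb2 window holds 2 CHR elements and 3 CCAAT boxes, that of Cdc20 holds 1 and 2, and that of Bub1b 1 and 1. Of the 24 genes of G2 and mitosis with a window, 16 (66.7%) held both motifs, against 6.21% of all genes with a window. A gene with several windows counted if any held them. The S-phase windows were searched for E2F-type letters (TTTGGCGC, TTTCCCGC or TTTCGCGC, or the complement GCGCCAAA, GCGGGAAA or GCGCGAAA), and 10 of 25 (40%) held them, against 3.25% of all genes with a window. The 2 called S-phase genes with the lowest p that held such letters are Mcm5, at chr8:75109259-75109558 on the plus strand, and Cdt1, a replication licensing factor 2.18-fold higher in GFP-low Prominin+ cells, at chr8:122567765-122568064 on the plus strand.
Mcm5: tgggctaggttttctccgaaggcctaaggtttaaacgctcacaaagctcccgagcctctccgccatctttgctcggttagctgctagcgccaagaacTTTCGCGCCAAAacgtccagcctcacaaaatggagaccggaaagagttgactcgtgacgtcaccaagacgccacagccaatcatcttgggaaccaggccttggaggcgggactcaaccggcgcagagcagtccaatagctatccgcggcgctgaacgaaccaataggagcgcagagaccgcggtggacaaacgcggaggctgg
Cdt1: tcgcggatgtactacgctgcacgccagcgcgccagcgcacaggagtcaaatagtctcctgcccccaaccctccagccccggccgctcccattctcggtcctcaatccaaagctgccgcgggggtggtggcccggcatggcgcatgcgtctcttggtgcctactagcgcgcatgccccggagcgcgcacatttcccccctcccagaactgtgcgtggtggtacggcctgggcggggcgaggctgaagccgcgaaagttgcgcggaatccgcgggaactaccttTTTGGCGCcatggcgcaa

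In Mcm5 the capitals are 2 overlapping matches, 1 on each strand. These matches describe the windows only, and any part of the motifs in the changes was not tested. The motif shares include cell-cycle genes that were not called. Among genes called higher with a window, 10 of 15 (66.7%) of G2 and mitosis held both motifs. For S phase, 5 of 9 (55.6%) held E2F-type letters.

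Markers of basal progenitors also rose. Of 16 genes, 9 were higher and 2 lower, with a median of 0.76. Eomes, the transcription factor that defines basal progenitors, had levels of 11.57, 11.39 and 11.42 in GFP-low Prominin+ cells, against 9.54, 9.52 and 10.22 in GFP-low cells (3.25-fold, log2 1.70 ± 0.20, adjusted p = 5.28e-05), with both of its probe sets called. Chd7, a chromatin remodeller, had 9.01, 8.78 and 8.83, against 5.56, 5.56 and 6.69 (7.65-fold). The 2 that fell were Mgat5b, a glycosyltransferase (5.34-fold lower, adjusted p = 4.01e-06), and Insm1, a zinc finger factor that drives basal progenitor formation (log2 -1.08). With the kit as a covariate, 3 were called higher and 1 lower.

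Genes of postmitotic neurons moved the other way. Of 24, 15 fell and 2 rose, with a median log2 difference of -0.92. Mapt, the microtubule protein tau, had levels of 9.29, 9.90 and 9.35 in GFP-low Prominin+ cells, against 12.38, 12.29 and 12.08 in GFP-low cells (6.68-fold lower, log2 -2.74 ± 0.22, adjusted p = 3.6e-06). Tubb3, the neuronal beta-tubulin, had 10.69, 11.13 and 10.64, against 12.81, 12.81 and 12.26 (3.50-fold lower, adjusted p = 4.69e-05). Sla, an adaptor protein, was 5.60-fold lower and Nefm, a neurofilament subunit, 3.17-fold lower. The 2 that rose were Neurod1, a proneural factor of newborn neurons (log2 1.17), and the RNA-binding protein Elavl3 (log2 0.59). With the kit as a covariate 3 of the 24 were called lower.

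**Figure D2:**
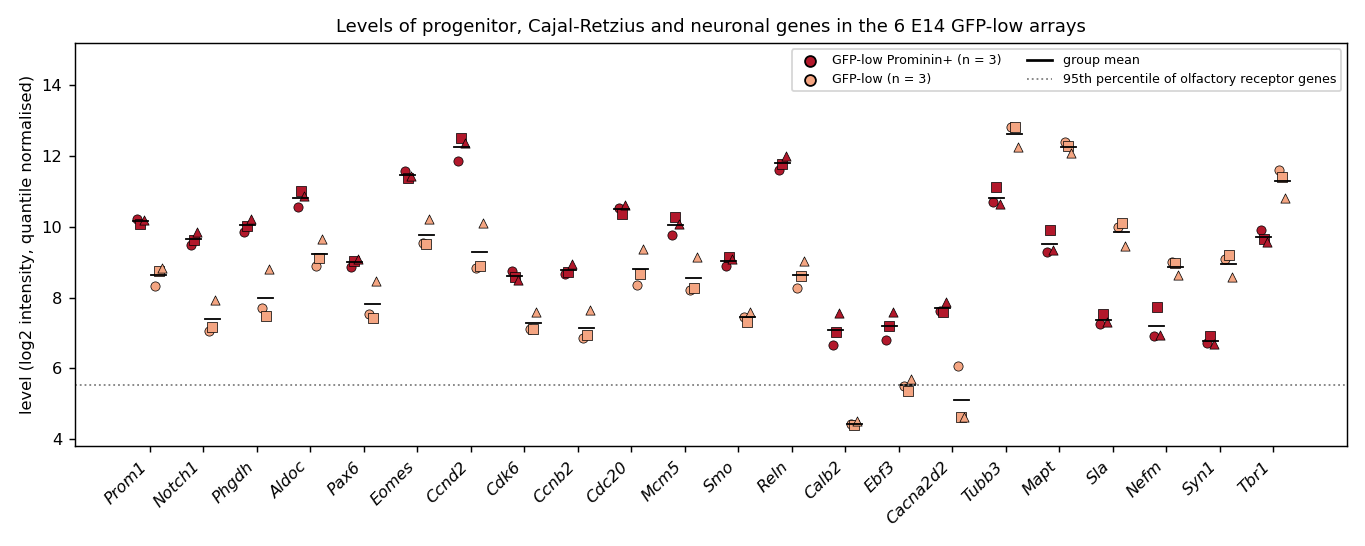
Levels of 22 genes (vertical axis, log2 intensity after quantile normalisation) on the 3 GFP-low Prominin+ and the 3 GFP-low arrays, with 1 point per array, the marker shape giving the replicate, and a bar at the group mean. All 22 are called genes, and points of the 2 groups do not overlap for any of them, as for 32.5% of all genes. GFP-low replicate 3 (triangles) is the nearest to the gated arrays for Ccnd2, Notch1, Eomes and Tubb3.

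Synaptic genes were split. Of 21, 8 fell and 3 rose, with a median of -0.58. Syn1, a synaptic vesicle protein, had levels of 6.73, 6.92 and 6.68 in GFP-low Prominin+ cells, against 9.08, 9.21 and 8.59 in GFP-low cells (4.55-fold lower, adjusted p = 1.53e-05). The 2 vesicular glutamate transporters went in opposite directions: Slc17a7 was 3.23-fold lower, and Slc17a6 had 9.91, 9.89 and 9.62, against 8.28, 7.92 and 9.07 (2.61-fold higher, adjusted p = 0.000657). The 8 falls were 5 without GFP-low Prominin+ replicate 2 or GFP-low replicate 1, and the 3 rises were 5 without GFP-low replicate 2. Of 21 channel and receptor genes, 4 fell and 3 rose, with a median of -0.41 and 4 of the 21 positive. Among the falls was the glutamate receptor subunit Gria3 (3.47-fold lower). The 3 rises were 1 without GFP-low replicate 1 or 2 or GFP-low Prominin+ replicate 1, and 2 without GFP-low Prominin+ replicate 3. Of 33 guidance and adhesion genes, 10 fell and 2 rose, but the median was 0.058 and 17 of the 33 had a positive difference. The cell adhesion protein Cntn2 was 2.12-fold lower and Sema4d, a semaphorin, 2.53-fold lower. Over all genes, 9.82% were called higher and 9.17% lower.

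Cortical layer factors moved both ways. Tbr1, of early deep-layer neurons, had levels of 9.90, 9.65 and 9.56 in GFP-low Prominin+ cells, against 11.62, 11.41 and 10.83 in GFP-low cells (2.98-fold lower, adjusted p = 0.000684), and Zfpm2, also of deep layers, was 3.10-fold lower. Cux1, a factor of upper-layer neurons that progenitors also express, was 2.38-fold higher, although of its 9 probe sets 3 were called higher and 1 lower. Over the 19 genes, 5 fell and 4 rose. In such sorted populations, fewer cells of a type and less of its RNA per cell cannot be told apart.

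Cajal-Retzius genes gave the highest median of the 38 lists. Of 12 tested, 10 rose and 0 fell, with a median log2 difference of 1.75. Reln, which encodes Reelin, had levels of 11.60, 11.78 and 11.99 in GFP-low Prominin+ cells, against 8.26, 8.62 and 9.04 in GFP-low cells (8.84-fold, log2 3.14 ± 0.27, adjusted p = 5.87e-06). Calb2, a calcium-binding protein, had 6.66, 7.02 and 7.55, against 4.44, 4.39 and 4.50, which is near background. The transcription factors Ebf3 (log2 1.68) and Lhx1 (log2 2.01) and the calcium channel subunit Cacna2d2 (log2 2.60) were near background in GFP-low cells too, so their sizes depend on the pseudocount. The gated arrays were above all 3 others for each of these 5 called genes. Over all genes, the groups did not overlap for 32.5%. Leaving out any 1 array gave 9 or 10 called genes, and the kit covariate 2, Reln (log2 3.52, adjusted p = 0.0069) and Calb2 (log2 3.76, adjusted p = 0.0087). Reln has 2 probe sets, and the dimmer was not called.

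Some genes of ventral forebrain interneurons were higher too. Of 17, 5 rose and 0 fell, with a median of 0.60, and 10 of the 17 had a mean above background. Gad1, which makes the transmitter GABA, had levels of 6.64, 7.01 and 7.45 in GFP-low Prominin+ cells, against 5.28, 5.41 and 6.04 in GFP-low cells (2.74-fold, adjusted p = 0.0019). Dlx1, Slc32a1 and Sst were also higher, from GFP-low means of 5.40, 4.25 and 5.61. Without GFP-low Prominin+ replicate 1 or replicate 3 the count was 3, and the call of Sst was lost without either of these or GFP-low replicate 2.

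**Figure D3:**
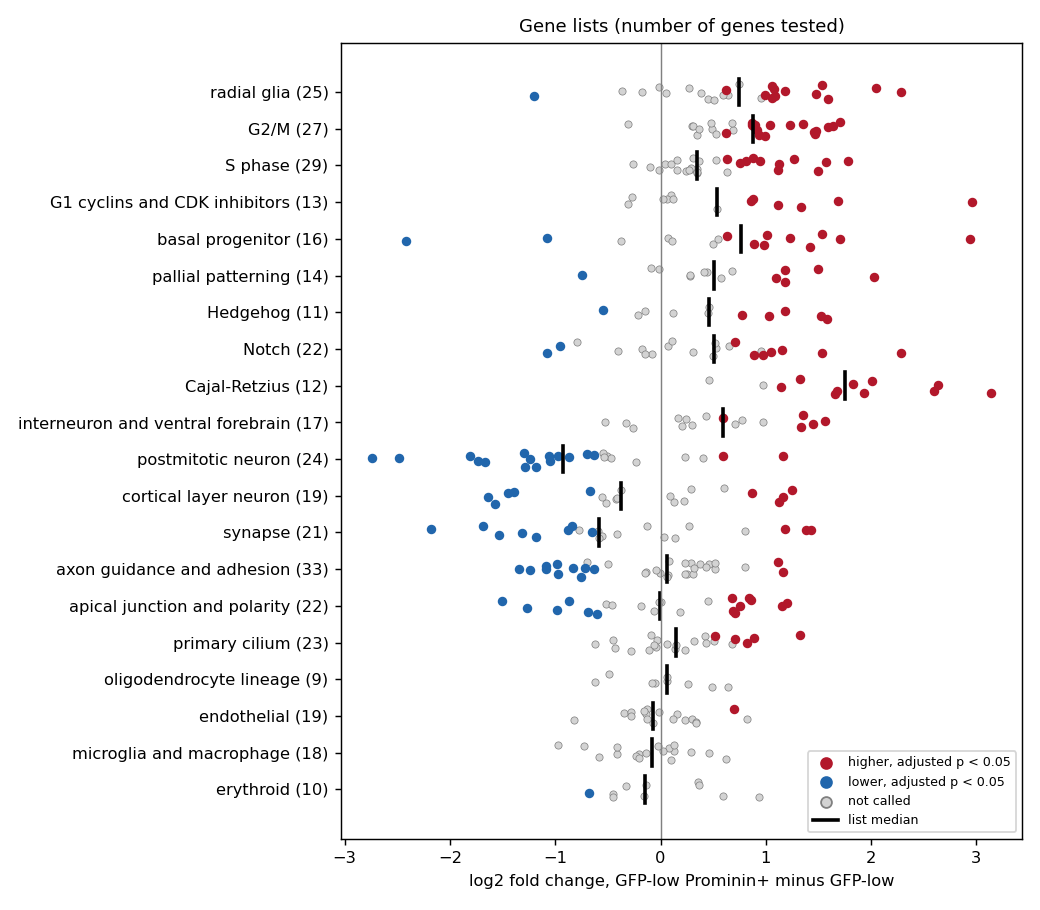
Log2 fold change of every gene of 20 lists between GFP-low Prominin+ and GFP-low cells (horizontal axis), 1 point per gene, with the number tested in parentheses. Red points were called higher, blue points lower, grey points were not called, and the bar marks the list median, which is 1.75 for Cajal-Retzius genes, 0.88 for genes of G2 and mitosis and -0.92 for postmitotic neurons.

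Apical genes did not move as 1 group, although the gate selects an apical protein. Of 22 junction and polarity genes, 8 rose and 6 fell, with a median of -0.0049. Pard3, a scaffold of the apical polarity complex, had levels of 8.42, 8.60 and 8.10 in GFP-low Prominin+ cells, against 6.89, 7.07 and 7.54 in GFP-low cells (2.30-fold higher, adjusted p = 0.000423). Cdh2, the N-cadherin of the apical junction, had 10.45, 9.95 and 9.95, against 11.63, 11.82 and 11.42 (2.84-fold lower, adjusted p = 0.000639). The alpha-catenin of neurons, Ctnna2, was 2.41-fold lower. The 8 rises were 3 without GFP-low replicate 2, 4 without GFP-low replicate 1 or GFP-low Prominin+ replicate 1, and 5 without GFP-low Prominin+ replicate 3. Of 23 primary cilium genes 5 rose and 0 fell, among them the transport protein Ift20 (2.50-fold higher), and 3 were called without replicate 1 or replicate 2 of either group.

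Genes known from astroglia and matrix gave single large changes. Gja1, a gap junction protein of radial glia and astrocytes, had levels of 8.35, 8.06 and 8.63 in GFP-low Prominin+ cells, against 6.27, 5.25 and 7.35 in GFP-low cells (4.16-fold, adjusted p = 0.0011), with 5 of 6 probe sets called. Sparc, a matrix glycoprotein, was 5.22-fold higher and the proteoglycan Bcan 3.59-fold higher, while Sparcl1, a relative of Sparc, was 3.07-fold lower. Zbtb20, a factor that promotes astrocyte formation, was 2.66-fold higher with 6 of 9 probe sets called. Of 19 astroglial genes, 4 rose and 2 fell, and the 4 rises were 2 without GFP-low replicate 2 and 7 without GFP-low replicate 3.

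Wnt genes were called in both directions. The 2 calls among FGF genes, both lower, are too few to give that list a direction. Over all genes 9.82% were called higher and 9.17% lower. Of 27 Wnt genes, 5 rose and 2 fell; the secreted inhibitor Sfrp1 was 2.17-fold higher, and the ligand Wnt7b had levels of 9.08, 9.63 and 9.28 in GFP-low Prominin+ cells, against 10.88, 11.07 and 10.46 in GFP-low cells (2.78-fold lower, adjusted p = 0.0013). The 5 Wnt rises were 2 without GFP-low replicate 1 and 3 without GFP-low replicate 2. Of 17 FGF genes, 0 rose and 2 fell, 1 of them Dusp6, a feedback target (1.87-fold lower, adjusted p = 0.036, a call lost without replicate 1 or replicate 2 of either group). Of 24 immediate early and stress genes 4 rose, among them Egr1 and Fos (3.12-fold, adjusted p = 0.0065), and 1 fell; the 4 were 2 without GFP-low Prominin+ replicate 1 or 3 or without GFP-low replicate 2.

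Chromatin and housekeeping lists were mixed. The BAF chromatin remodelling complex changes subunits as progenitors become neurons. Of 6 progenitor forms, 3 rose (Smarcc1 by 3.28-fold, Bcl7c by 3.05-fold and Actl6a by 1.66-fold) and 0 fell; the 3 were 5 without GFP-low replicate 3, and the call of Actl6a was lost without replicate 1 of either group. Of 6 neuronal forms, 2 fell (Smarcc2, 2.16-fold lower, and Ss18l1, 1.68-fold lower) and 1 rose, Dpf3 (log2 1.01, near background in GFP-low cells and of opposite sign, -0.25, with a pseudocount of 1), a call lost without GFP-low Prominin+ replicate 1 or GFP-low replicate 1 or 2. With the kit as a covariate 0 of either list were called. Of 11 DNA methylation genes, 4 rose and 1 fell. Tet1, which oxidises methylated cytosine, was 3.45-fold higher and stayed called with the kit as a covariate, and Mbd3, of the methyl-CpG-binding domain family, was 2.41-fold lower (adjusted p = 0.027), a call lost without GFP-low Prominin+ replicate 1 or 3 or GFP-low replicate 1 or 2. Of 44 ribosomal protein genes 8 rose and 2 fell, with a median of 0.05. In oxidative phosphorylation 4 of 30 rose, such as Uqcrc2 (2.36-fold), and 8 fell, such as Sdhc (2.89-fold lower); the 8 falls were 3 without GFP-low replicate 1, 4 without GFP-low replicate 2 and 5 without GFP-low Prominin+ replicate 2, and the 4 rises were 1 without GFP-low Prominin+ replicate 3 and 2 without GFP-low Prominin+ replicate 1 or GFP-low replicate 1 or 2. The oxidative phosphorylation list had a median of 0.23, with 18 of 30 positive. Of 16 cholesterol synthesis genes 0 rose and 2 fell. The 2 were Srebf2, the regulator of the pathway (5.22-fold lower, limma adjusted p = 3.49e-05), and Fdps, an enzyme (3.81-fold lower). The median of the 16 was 0.053 and 9 were positive, so the 2 calls give that list no direction. Over all genes, 9.82% were called higher and 9.17% lower.

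Markers of other cell types that a cortical sort could hold were mostly near background. Of 18 microglia and macrophage genes 0 were called and 4 had a mean above background, and their mean level was between 4.94 and 5.12 on GFP-low Prominin+ arrays and between 5.12 and 5.20 on GFP-low arrays. Of 19 endothelial genes only Slc2a1 (log2 0.69), a glucose transporter also used by progenitors, was called. Their mean level was between 5.23 and 5.31, against between 5.04 and 5.39. Of 17 pericyte and meningeal genes 2 rose and 1 fell, of 10 erythroid genes 1 fell, and of 9 oligodendrocyte genes 0 were called. The parts of these cells in the results were not tested further.

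The same gate in GFP-high cells gives a second contrast, with no array in common. There 1987 genes (10.9%) were higher with the gate and 1806 (9.93%) lower. Of the genes called higher in GFP-low Prominin+ cells, 774 were higher in GFP-high Prominin+ cells too, which is 43.3% of the first list and 39% of the second. For genes called lower it was 624, which is 37.4% and 34.6%. Across genes, which are not independent, the log2 differences of the 2 contrasts correlated with Pearson's r = 0.38 and Spearman's rho = 0.34. Both contrasts share the kit change in part and the same scaling.

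Several of the largest changes were alike at both GFP levels. Rpl27a differed by 3.21 in GFP-low and 3.23 in GFP-high cells, Kdm5a by 3.04 and 2.59, Pdia3, a protein disulfide isomerase, by -2.92 and -3.51, and Mta2 by -2.99 and -3.23. Between GFP-high replicate 1, labelled with the MessageAmp kit, and GFP-high replicates 2 and 3, labelled with the IVT kit, these 4 genes differed by 0.02, -0.04, 0.03 and 0.42. That replicate's dap control read 1021, within the 565 to 1894 of the GFP-low arrays. Fdps (-1.93 and -1.87) and Smarcc1 (1.71 and 1.56) also had like sizes at both levels.

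The progenitor and neuron genes were not alike. The GFP-low contrast minus the GFP-high contrast was called for 1429 genes, 707 (3.89%) positive and 722 (3.97%) negative. It was positive for 26 of 27 genes of G2 and mitosis, for 24 of 29 S-phase genes and for 21 of 25 radial glia genes, and negative for 0 of them. In GFP-high cells 21, 19 and 16 of these genes fell with the gate and 0 rose. For postmitotic neurons the difference was negative for 17 of 24 genes and positive for 0, and 13 of them rose in GFP-high cells.

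Single genes show the size of that gap. Pax6 was higher by 1.18 with the gate in GFP-low cells and differed by -1.07 in GFP-high cells (difference 2.25 ± 0.34, adjusted p = 0.000708). Ccnd2 gave 2.96 and 0.56 (difference 2.40 ± 0.38, adjusted p = 0.000924). Mapt gave -2.74 and 0.91 (difference -3.65 ± 0.30, adjusted p = 1.42e-05). Calb2 gave 2.63 and 0.11 (difference 2.53 ± 0.49, adjusted p = 0.004), while for Reln, with 3.14 and 2.32, the difference was not called (0.82 ± 0.37, adjusted p = 0.24). Prom1 itself was 1.53 higher in GFP-low cells and 0.09 in GFP-high cells (adjusted p = 0.76), where its mean was 10.90 with the gate and 10.81 without.

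**Figure D4:**
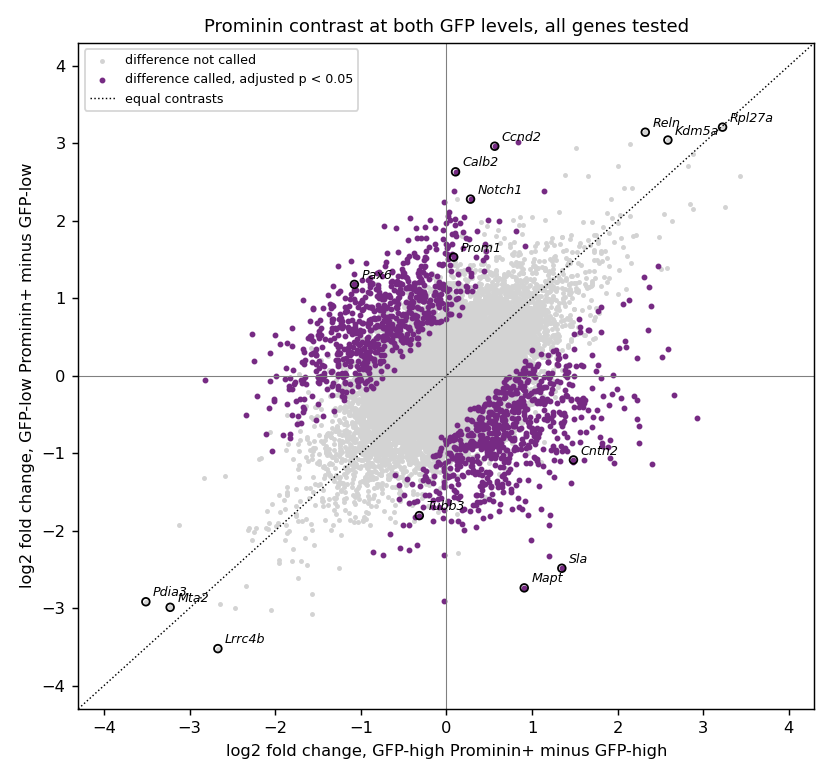
Log2 fold change of every gene tested with the Prominin gate in GFP-low cells (vertical axis) against that in GFP-high cells (horizontal axis), with genes in purple where the difference between the 2 contrasts was called. Rpl27a, Kdm5a, Pdia3 and Mta2 lie near the dotted line of equal contrasts, and Ccnd2, Notch1, Pax6, Mapt and Sla lie far from it.

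Levels of the lists on each array put the gated GFP-low cells between the groups without the gate. The 25 radial glia genes averaged 8.82 ± 0.13 in GFP-low Prominin+ cells and 8.06 ± 0.40 in GFP-low cells (SD, n = 3 each), and 9.53 ± 0.14 in GFP-high Prominin+ cells (n = 4) and 10.45 ± 0.02 in GFP-high cells (n = 3). Genes of G2 and mitosis had the same order, at 8.02, 7.14, 8.71 and 9.77. The neuron list ran in reverse, at 10.32, 11.18, 9.63 and 8.86. No array of 1 group overlapped the next in that order for these 3 lists. For Cajal-Retzius genes the gated GFP-low arrays stood highest, between 7.13 and 7.48, against 5.26 to 5.65 in GFP-low cells, with 5.94 to 6.19 in GFP-high Prominin+ cells and 5.46 to 5.59 in GFP-high cells.

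**Figure D5:**
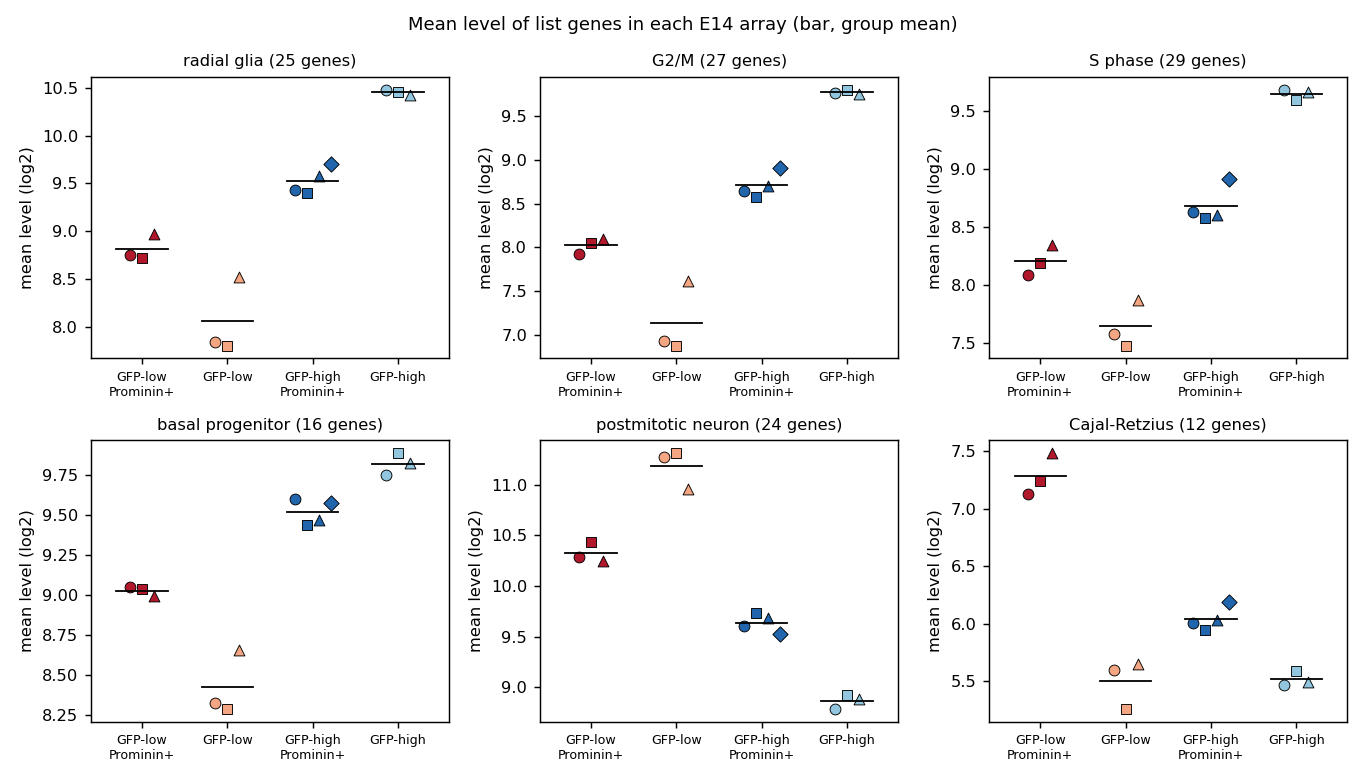
Mean level of the genes of 6 lists (vertical axis, log2) on each E14 array, with the 4 groups on the horizontal axis, marker shapes for replicates and bars at group means. GFP-low replicate 3 (triangle) lies nearest to GFP-low Prominin+ cells for radial glia, G2 and mitosis, S phase, basal progenitors and neurons, and Cajal-Retzius genes are highest in GFP-low Prominin+ cells.

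Probe sets of 1 gene did not always move alike. Of 2221 called genes with over 1 probe set, 1297 had no second probe set called. Notch1, Mcm5, Cdt1, Nrarp, Gria3, Bcan and Uqcrc2 are among them. Of 1304 genes with 2 or more called probe sets, 374 (28.7%) had calls in opposite directions. Rbm39, a splicing factor, has a probe set with means of 10.43 in GFP-low Prominin+ cells and 6.80 in GFP-low cells, and another with 7.12 and 8.65. The same 2 probe sets had 10.51 and 7.36, and 7.42 and 9.51, in GFP-high Prominin+ and GFP-high cells. Gpm6b, a neural membrane glycoprotein, gave 6.83 and 9.91 on 1 probe set and 8.28 and 6.78 on another, and 11.54 and 11.50 on its brightest. Atrx, a chromatin remodeller, and Kif5c, a neuronal kinesin, likewise had probe sets called in both directions, in Kif5c by 1.81 and -2.50.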

How the data were processed

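RNA of sorted cells was measured on 17 mouse 3′ expression arrays of 45101 probe sets. The values used are the authors' deposited linear intensity, 1 per probe set, in the series' value table; no source used here states the software or the scaling target. With the lowest 2% and highest 2% of values left out, array means were 149.954 to 149.964, so arrays had been scaled to 1 target. RNA was extracted with on-column DNase treatment, per the labels' protocols. Of the probe sets, 34945 have 1 gene symbol in the platform annotation, 932 several and 9160 none, beside 64 controls; the brightest probe set stands for each of 18193 genes. The medians of the arrays spanned 0.60 in log2 units, above a limit of 0.5 set for this. The log2(intensity + 16) values of the chosen probe sets were therefore quantile normalised. They were then fitted with limma 3.58.1 in R 4.3.3 (lmFit and eBayes, 5 group means over 17 arrays, Benjamini-Hochberg over all genes). The intensity of single controls was compared with exact permutation tests. The 38 gene lists (809 entries, 78 without a measured gene), the members and the tests were chosen with earlier results of these data known; list counts are descriptions. Named genes are Prom1, Gfap, Slc1a3, Fabp7, Pax6, Eomes, Tubb3 and Reln, called genes of largest change whose groups do not overlap, the called list members of lowest p, and genes with opposed probe sets; Xist, Hes5, Dll1, Pcna, Elavl3, Insm1, Ptprz1, Cux1, Lhx1, Neurod1, Zbtb20, Cdt1, Slc2a1, Pdia3, Bcl7c, Actl6a, Dpf3 and Mbd3 were in part added after their values were seen. The background level from olfactory receptor genes was also set after the data were seen. The fit was tested on simulated data. Pseudocount, normalisation, filter, probe set rule, arrays fitted, kit and left-out arrays were varied.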

Additional observations from a re-analysis of the deposited data

Results flagged for a closer look

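The effect of the Prominin gate differed between GFP-low and GFP-high cells, by the test of the difference in limma, for 1429 of 18193 genes (either sign). Differences below are the GFP-low contrast minus the GFP-high contrast on the log2 scale, each with an adjusted p under 0.05 over all genes, and no cause was tested.

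Among genes of radial glia and of the regulators that act on them, the difference was 1.45 for Prom1, 2.00 for Notch1, 1.84 for Phgdh, 2.29 for Aldoc, 2.25 for Pax6 and 1.49 for Fabp7. For Fabp7 it came from GFP-high cells, where the gene differed by -1.86 with the gate, against -0.37 in GFP-low cells. The Hedgehog pathway genes Gli3, Gli2 and Smo gave 2.07, 1.78 and 1.60. Gja1 and Sparc gave 2.03 and 2.29. Eomes, the marker of basal progenitors, gave 1.83.

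In the cell cycle the difference was 2.40 for Ccnd2, 1.98 for Cdk6, 1.76 for Ccnb2, 1.94 for Bub1b, 1.71 for Cdc20 and 2.17 for Ube2c. The replication genes Gins2 and Mcm5 gave 2.08 and 1.76. Of the Cajal-Retzius genes, Calb2 gave 2.53 and Ebf3 1.66.

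Neuronal genes differed the other way: -1.49 for Tubb3, -3.65 for Mapt, -3.83 for Sla, -1.97 for Nefm, -1.84 for Syn1, -1.51 for Tbr1, -1.99 for Zfpm2, -2.57 for Cntn2 and -2.75 for Gria3. Wnt7b gave -1.89, Rspo3, a secreted enhancer of Wnt signalling, -2.09 and Dusp6 -2.15. Rspo3 was lower with the gate in GFP-low cells (log2 -0.80) and higher in GFP-high cells (log2 1.29).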

How the results depend on the processing

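Of 93 named genes called in the GFP-low contrast, 34 kept their direction and their call in all 17 alternatives. The count of 3454 called genes was 373 with the labelling kit as a covariate, 1584 with the 6 GFP-low arrays fitted alone and 430 when those 6 also had the replicate number as a block; the last 2 fits have fewer samples to estimate the spread from. It was 2400 to 3773 with 1 array left out and 2939 to 4010 under the other settings. The count of 1429 genes for the difference of contrasts was 811 with the E14 arrays alone and a replicate block, and 1061 to 1747 with 1 array left out. Same-numbered deviations correlated by -0.054, 0.008 and -0.019, so no pairing by number was detected. Whether same-numbered samples share a litter or day is not given in the labels. The mean of all probe sets turned the sign for Slc1a3 (-0.12), Pax6 (-0.15) and Rc3h2 (0.046), and Gfap ran between -0.16 and 0.63 with 1 array left out. Genes near background, such as Calb2 and Cacna2d2, have log2 sizes that the pseudocount moves: Calb2 ran between 1.40 and 4.18, and Dpf3 turned to -0.25 with a pseudocount of 1.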

Other observations

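Xist, the RNA that coats the inactive X chromosome of female cells, had levels of 11.17, 9.78 and 10.98 in GFP-low Prominin+ cells, against 8.71, 8.15 and 8.95 in GFP-low cells (log2 2.04 ± 0.29, limma adjusted p = 0.000169). It was also higher with the gate in GFP-high cells (log2 1.93), with means of 11.03 and 9.10. The Y-linked genes Eif2s3y, Kdm5d and Uty differed by 0.39, -0.07 and -0.29 in GFP-low cells and were not called. The sex of the embryos behind each array is not given in the labels, and these genes were looked at after the values of Xist were seen.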
